A study of Mus musculus with 14 samples.

Results

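The surface targets of small cell lung cancer (SCLC) therapies are proteins on the tumour cell that antibodies, antibody-drug conjugates, T cell engagers or radioligands are made to bind. The RNA of 8 such genes, chosen by name (Dll3, Sez6, Ncam1, Cd276, Sstr2, Cd24a, Cd47 and Cd44) out of 46517 genes in the table, was followed through 14 lung tumour libraries from 2 mouse models. The choice was made with earlier results of these data known. All 8 were found in the table and all 8 passed the filter on low values. Mice of both models were Rb1 fl/fl and Trp53 fl/fl, and an adenovirus that makes Cre recombinase under the neuroendocrine Cgrp promoter started the tumours in the lung. RPM tumours (n = 11) also carried the LSL-Myc T58A allele, a form of Myc that Cre switches on, as LSL/LSL in 9 tumours and LSL/+ in 2 (RPM replicates 2 and 4). RPR2 tumours (n = 3) instead carried floxed p130 (fl/fl), the gene Rbl2, and no Myc transgene is named for them. All tumours were untreated, were cut out of the lung by eye and were sequenced as bulk tissue. The ages of the mice are not stated in the labels, and RPM replicates 6 and 7 and RPM replicates 10 and 11 share a title number, so that they may not be independent. P-values therefore measure the spread between these libraries, part of which may be technical.

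SCLC is a neuroendocrine cancer, and several of its surface targets are neural proteins that few normal adult cells carry. Dll3 is an inhibitory ligand of the Notch pathway, a signalling route between touching cells that holds back neuroendocrine fate, and is the antigen of T cell engagers and antibody-drug conjugates. Sez6 is a neuronal membrane protein, Ncam1 (CD56) the neural cell adhesion molecule long used to recognise SCLC in pathology, and Sstr2 a somatostatin receptor bound by radiolabelled peptides. Cd276 (B7-H3) belongs to the B7 family of immune checkpoint ligands. Cd24a, the mouse CD24 gene, and Cd47 encode signals that tell macrophages not to engulf a cell, and Cd44 encodes a receptor for hyaluronan that many epithelial, mesenchymal and immune cells carry. Only RNA was measured, so nothing here shows how much of each protein reached the cell surface.

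Positions are those of GENCODE M21 on GRCm38. Dll3 (ENSMUSG00000003436) lies at chr7:28293553-28302238 on the minus strand, Sez6 at chr11:77930800-77979048 on the plus strand, and Ncam1 at chr9:49502136-49798925 on the minus strand. Cd276 lies on chr9:58524298-58555437 on the minus strand, Sstr2 on chr11:113619342-113626028 on the plus strand, and Cd24a on chr10:43578284-43584265 on the plus strand. Cd47 lies on chr16:49800533-49915010 on the plus strand and Cd44 on chr2:102811141-102901665 on the minus strand.

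RefSeq (GRCm38.p6) promoter windows, each from 250 bases before to 50 bases after the annotated start, were found for 5 of the 8 genes. All 5 are shown, and no window was found for Sez6, Ncam1 and Cd24a. Of the 5, Cd47 and Cd44 were both lower in RPM, Cd276 was the member called higher, and Dll3 and Sstr2 varied together among RPM tumours. Sequences run 5′ to 3′ on the strand of the gene. Capitals mark the E-box CAGCTG, bound by proneural factors of the basic helix-loop-helix family, and the GC box GGGCGG or its other strand CCGCCC, bound by Sp factors. The windows are chr7:28301736-28302035 (minus strand) for Dll3, chr11:113619077-113619376 (plus) for Sstr2, chr9:58554984-58555283 (minus) for Cd276, chr16:49855404-49855703 (plus) for Cd47 and chr2:102901616-102901915 (minus) for Cd44.
Dll3: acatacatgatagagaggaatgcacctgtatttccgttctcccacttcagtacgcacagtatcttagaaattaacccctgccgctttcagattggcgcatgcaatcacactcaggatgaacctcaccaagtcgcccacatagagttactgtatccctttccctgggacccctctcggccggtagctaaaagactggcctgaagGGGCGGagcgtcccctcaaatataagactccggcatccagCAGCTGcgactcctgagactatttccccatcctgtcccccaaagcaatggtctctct
Sstr2: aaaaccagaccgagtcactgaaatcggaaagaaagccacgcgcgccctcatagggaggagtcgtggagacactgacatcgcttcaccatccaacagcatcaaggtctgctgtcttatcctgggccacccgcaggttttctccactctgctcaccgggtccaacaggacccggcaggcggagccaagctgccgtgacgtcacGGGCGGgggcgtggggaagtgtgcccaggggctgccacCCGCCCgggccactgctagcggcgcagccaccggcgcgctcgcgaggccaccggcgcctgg
Cd276: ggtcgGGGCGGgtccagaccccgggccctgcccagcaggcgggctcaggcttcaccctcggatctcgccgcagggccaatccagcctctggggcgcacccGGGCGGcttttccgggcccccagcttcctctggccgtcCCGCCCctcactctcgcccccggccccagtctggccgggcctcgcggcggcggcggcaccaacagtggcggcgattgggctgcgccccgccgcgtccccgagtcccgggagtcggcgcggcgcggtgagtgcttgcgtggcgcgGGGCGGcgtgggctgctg
Cd47: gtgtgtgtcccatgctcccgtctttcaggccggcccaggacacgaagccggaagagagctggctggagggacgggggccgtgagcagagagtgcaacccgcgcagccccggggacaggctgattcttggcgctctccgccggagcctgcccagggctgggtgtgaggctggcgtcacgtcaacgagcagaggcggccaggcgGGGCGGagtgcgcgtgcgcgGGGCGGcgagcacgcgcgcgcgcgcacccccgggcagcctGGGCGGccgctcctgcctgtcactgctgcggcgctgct
Cd44: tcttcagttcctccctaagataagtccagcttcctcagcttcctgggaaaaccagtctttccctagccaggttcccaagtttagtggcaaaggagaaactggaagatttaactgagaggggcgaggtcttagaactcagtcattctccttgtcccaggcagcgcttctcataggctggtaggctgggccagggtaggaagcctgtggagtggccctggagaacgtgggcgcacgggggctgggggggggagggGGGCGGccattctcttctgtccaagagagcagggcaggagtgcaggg

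The Dll3 window held 1 CAGCTG, which begins 7 bases before the start, and 1 GC box. The other 4 windows held no CAGCTG. The GC box was found 4 times in the Cd276 window, 3 times in that of Cd47, 2 times in that of Sstr2 and 1 time in that of Cd44, counting both strands. The E-box CACGTG, the preferred site of Myc with its partner Max, was in none of the 5 windows. Among 32851 windows of the same length, of 27025 genes, 16.3% held CAGCTG, 35.7% held the GC box and 7.15% held CACGTG. The windows of Cd276 and Cd47 were GC-rich, at 78.3% and 74.0%, against a median of 52.7% over all windows and 52.0% for Dll3. The letters in a window are a description and do not show that a factor binds there.

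The labels were checked on Myc, which stood at 224 ± 88.7 FPKM (SD, n = 11) in RPM, with a range of 48.4 to 384, and between 4.68 and 13.6 FPKM in the 3 RPR2 libraries. FPKM scales the fragments of a gene by transcript length and by the mapped reads of the library, so levels of different genes can be compared per length. Gene-level values of Rb1, Trp53 and Rbl2 include exons outside the floxed part and give no check of the deletions. RPR2 replicate 3 stood apart. The summed level of 11 neuroendocrine markers was 381 FPKM there, against 3499 and 4827 in RPR2 replicates 1 and 2 and 356 to 1777 in RPM. None of the 11 was at 0 in it. Of the 11, 8 lay below all other libraries there, among them Chga, Syp, Insm1 and Scg3 at 0.74, 0.64, 0.21 and 0.18 FPKM, while Calca (7.47) and Resp18 (5.39) lay within the RPM range. Nkx2-1, a marker that alveolar cells also carry, was at 309 FPKM, above all other libraries, and made up most of the sum. Without Nkx2-1 the sum of the other 10 was 71.2 FPKM, against 3429 and 4724 in RPR2 replicates 1 and 2 and 301 to 1681 in RPM. The summed level of 8 alveolar type 2 cell markers was 51960 FPKM in RPR2 replicate 3, against 1256 and 1984 in the other RPR2 libraries and 15.6 to 892 in RPM. The share of tumour cells in this library was not measured, so a value over all 3 RPR2 libraries includes 1 whose make-up is unknown. Results of the 8 genes are therefore also given without it, and those of other genes where it ends a call. RPM replicate 5 had the lowest neuroendocrine sum of its model. Libraries were estimated at 17.1 to 19.7 M mapped reads in RPM and 20.7 to 22.1 M in RPR2. The 2 models carry different sequencing request numbers in the labels, and RPM replicate 9 is the sole sample of its number, so model and request cannot be told apart. In bulk tissue, fewer cells of a type and less RNA per cell cannot be told apart either.

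All 8 genes reached an FPKM of at least 1 in each of the 11 RPM libraries and in RPR2 replicates 1 and 2, and 5 of 8 did so in RPR2 replicate 3. An FPKM of at least 10 was reached by 5 to 7 of the 8 genes per RPM library, by 7 in RPR2 replicates 1 and 2 and by 4 in RPR2 replicate 3. In RPM the mean levels, in FPKM ± SD over 11 libraries, ran from Cd24a (181 ± 31.5) through Dll3 (24.1 ± 10.4), Cd276 (23.7 ± 4.75), Cd47 (22.0 ± 5.90), Ncam1 (21.9 ± 8.44), Sez6 (11.5 ± 4.97) and Sstr2 (8.69 ± 5.00) to Cd44 (6.74 ± 6.24). Cd24a was above Dll3, and Ncam1 above Sez6, in 11 of 11 libraries. The neighbours from Dll3 to Ncam1 did not differ beyond their spread, with Dll3 above Cd276 in 6 of 11 libraries, Cd276 above Cd47 in 5 and Cd47 above Ncam1 in 6. Sez6 was above Sstr2, and Sstr2 above Cd44, in 7 of 11 libraries.

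The order differed in RPR2. Cd24a was highest in all 3 libraries, and Cd47 was above Cd44 in all 3. Cd44 was above Sez6, and Sez6 above Cd276, in 2 of 3 libraries, Cd276 was above Ncam1 in 1, Ncam1 above Dll3 in 3 and Dll3 above Sstr2 in 2. RPR2 replicates 1 and 2 both had Sez6 and Ncam1 above Cd276, and Dll3 above Sstr2. These orders turned in RPR2 replicate 3, where Ncam1, Sez6 and Dll3 were at only 0.10, 0.04 and 0.03 FPKM. Among genes with an FPKM above 0 in the same library, Cd24a ranked between the 96.8 and 98.3 percentiles in RPM. Dll3 ranked between 67.6 and 88.5 in RPM, at 73.1 and 75.6 in RPR2 replicates 2 and 1 and at 4.14 in RPR2 replicate 3. Cd47 ranked between 72.9 and 87.1 in RPM and between 93.6 and 94.3 in RPR2.

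**Figure D1:**
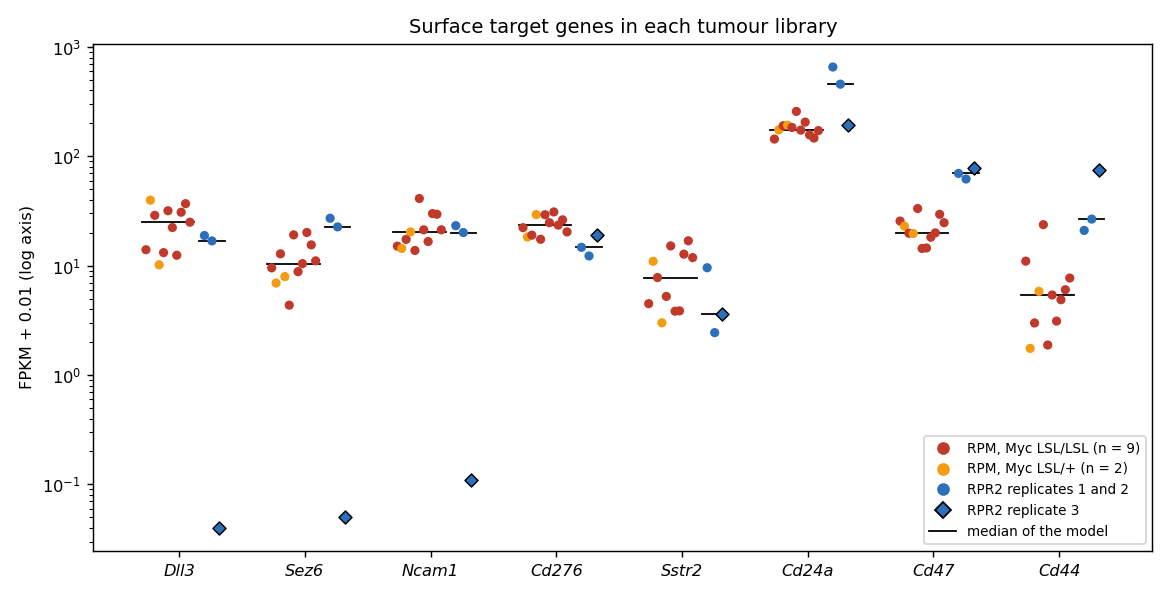
Levels of the 8 surface target genes in each of the 14 libraries, as FPKM + 0.01 on a log axis, with 1 point per library and a line at the median of each model. Dll3, Sez6 and Ncam1 lie at 0.03, 0.04 and 0.10 FPKM in RPR2 replicate 3 (diamonds), and all 3 RPR2 points of Cd47 lie above all 11 RPM points.

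Between the models, 1 of the 8 genes was higher in RPM (Cd276) and 3 were lower (Cd24a, Cd47 and Cd44) by limma at a Benjamini-Hochberg adjusted p under 0.05. Over all 15719 genes tested, 18.4% were called higher in RPM and 22.8% lower, and the libraries did not overlap for 11.1% and 13.6%. The balance moved with the scaling, to 11.9% higher and 22.8% lower after TPM scaling, and from 2897 genes higher and 3586 lower to 3895 and 2894 after quantile normalization. The median log2 difference, RPM minus RPR2, was 0.49 over the 8 genes and -0.06 over all genes tested. Without RPR2 replicate 3, 1 of the 8 was higher and 4 were lower, with Sez6 added to the lower ones, beside 16.2% and 28.5% of all genes, and the medians were -0.60 and -0.22. Differences are on the log2(FPKM + 1) scale, which understates those of low genes.

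None of the neural and neuroendocrine antigens Dll3, Sez6, Ncam1 and Sstr2 passed the limma test between the models with all libraries and unscaled FPKM, and RPR2 replicate 3 stood apart for the first 3 of them. Other settings did give calls with all libraries, for Dll3 and Ncam1 after quantile normalization, for Dll3 after median-of-ratios scaling, and for Sez6 (lower) and Sstr2 (higher) with array weights. Dll3 ran from 10.2 FPKM (RPM replicate 4) through a median of 24.9 to 39.7 (RPM replicate 2) in RPM. In RPR2 it was at 18.8, 16.8 and 0.03 FPKM. RPR2 replicates 1 and 2 lay inside the RPM range, and RPR2 replicate 3 lay below all other libraries. At the estimated depth that value corresponds to about 1.70 reads, under the 0.0528 FPKM that 3 reads give. The log2 difference was 1.68 ± 0.682 (SE, n = 11 and 3), with a 95% interval of 0.23 to 3.14, and did not pass (limma adjusted p = 0.0606). It grew to 2.66 and 3.23 with pseudocounts of 0.1 and 0.01 and did not pass there either (limma adjusted p = 0.0562 and 0.0575). Without RPR2 replicate 3 it was 0.29, with an interval of -0.66 to 1.23 (limma adjusted p = 0.624). It was called without RPR2 replicate 1 (2.42, limma adjusted p = 0.0220) and without RPR2 replicate 2 (2.34, 0.0311).

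Sez6 ran from 4.34 FPKM (RPM replicate 5) through a median of 10.4 to 20.1 (RPM replicate 9) in RPM, and stood at 27.1, 22.6 and 0.04 FPKM in RPR2. RPR2 replicates 1 and 2 were above all 11 RPM libraries, and RPR2 replicate 3 was below them all. With all libraries the log2 difference was 0.39 ± 0.718 (SE, n = 11 and 3; limma adjusted p = 0.693), and 1.27 and 1.75 with pseudocounts of 0.1 and 0.01 (0.381 and 0.302). Without RPR2 replicate 3 the direction turned. Sez6 was then 2.22-fold lower in RPM, with a log2 difference of -1.15 ± 0.400 (SE, n = 11 and 2) and an interval of -2.01 to -0.29 (limma adjusted p = 0.0307).

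Ncam1 ran from 13.8 FPKM (RPM replicate 5) through a median of 20.3 to 41.1 (RPM replicate 6) in RPM, and stood at 23.2, 20.1 and 0.10 FPKM in RPR2. RPR2 replicates 1 and 2 lay among the RPM libraries. The log2 difference was 1.39 ± 0.659 (SE, n = 11 and 3), with an interval of -0.01 to 2.797 (limma adjusted p = 0.104), and -0.06 without RPR2 replicate 3, with an interval of -0.77 to 0.65 (limma adjusted p = 0.899). With pseudocounts of 0.1 and 0.01 and all libraries it was 2.19 and 2.47 (limma adjusted p = 0.0873 and 0.0860). As for Dll3, leaving out RPR2 replicate 1 or 2 gave a call (2.17 and 2.07, limma adjusted p = 0.0281 and 0.0432).

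Sstr2 differed from these 3 in RPR2 replicate 3, where it did not drop out. It ran from 2.99 FPKM (RPM replicate 4) through a median of 7.77 to 16.9 (RPM replicate 10) in RPM and stood at 9.56, 2.43 and 3.62 FPKM in RPR2. The groups overlapped, and RPR2 replicate 2 was the lowest of all libraries. The log2 difference was 0.63 ± 0.480 (SE, n = 11 and 3), with an interval of -0.40 to 1.65 (limma adjusted p = 0.317), and 0.50 without RPR2 replicate 3 (limma adjusted p = 0.502).

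RPR2 replicate 3, with the lowest Dll3, Sez6 and Ncam1, also had the lowest neuroendocrine sum without Nkx2-1 (71.2 FPKM) and the highest alveolar type 2 sum (51960 FPKM). These are values of 1 library and show no relation between them. Of the 11 neuroendocrine markers, 1 was called higher and 2 lower in RPM with all libraries (limma, median log2 difference 0.14), beside 18.4% and 22.8% of all genes. Without RPR2 replicate 3, 0 were higher and 5 lower (median -1.24), beside 16.2% and 28.5%. The part of the cell types these markers stand for was not tested in these differences.

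**Figure D2:**
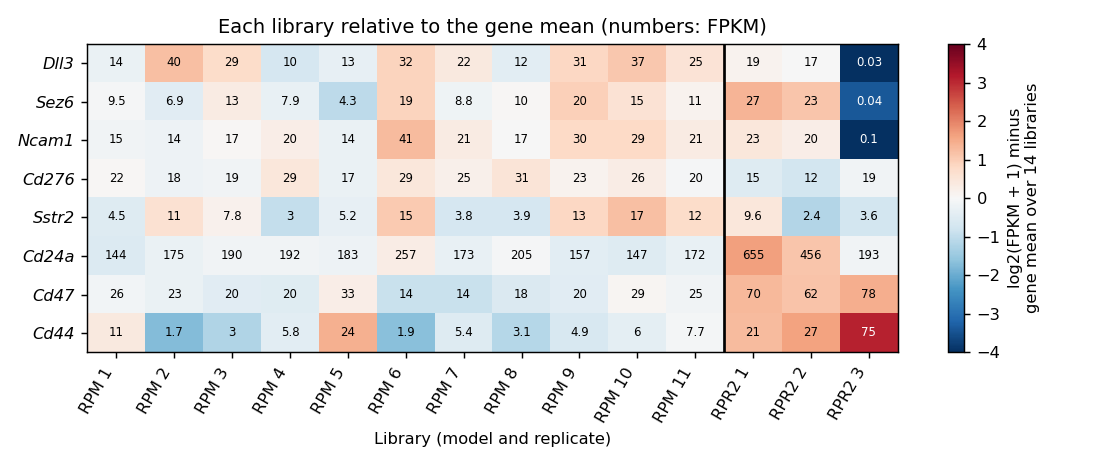
Each library of the 8 genes relative to the mean of that gene over 14 libraries, as log2(FPKM + 1), in colour, with the FPKM written in each cell. RPR2 replicate 3 is at 0.03, 0.04 and 0.10 FPKM for Dll3, Sez6 and Ncam1 and at 75.3 FPKM for Cd44, the highest of that row.

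Cd276 was the member called higher in RPM. It ran from 17.4 FPKM (RPM replicate 5) through a median of 23.5 to 31.0 (RPM replicate 8) in RPM, and stood at 14.7, 12.3 and 19.1 FPKM in RPR2. RPR2 replicates 1 and 2 were below all RPM libraries, and RPR2 replicate 3 lay within the RPM range. Cd276 was 1.51-fold higher in RPM, with a log2 difference of 0.60 ± 0.192 (SE, n = 11 and 3) and an interval of 0.19 to 1.004 (limma adjusted p = 0.0218). Without RPR2 replicate 3 the difference was 0.75 (limma adjusted p = 0.0102). The call was lost without RPR2 replicate 1 (0.58, limma adjusted p = 0.0700) or RPR2 replicate 2 (0.46, 0.137), and after TPM scaling, where the totals of all libraries are equal (0.42, 0.226). Some smooth muscle and fibroblast markers were also higher in RPM. Their counts stand beside 18.4% of all genes called higher and 22.8% lower. Of 5 smooth muscle markers 3 were called higher and 0 lower (limma, median log2 difference 1.72), with summed levels of 104 to 233 FPKM in RPM and 29.1 to 41.3 in RPR2. Of 6 fibroblast markers 3 were called higher and 1 lower (median 1.05), with sums of 65.5 to 234 FPKM in RPM and 84.03 to 192 in RPR2. Their part in the difference of Cd276 was not tested.

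Cd24a was the most abundant member in every library. It ran from 144 FPKM (RPM replicate 1) through a median of 175 to 257 (RPM replicate 6) in RPM, and stood at 655, 456 and 193 FPKM in RPR2. RPR2 replicates 1 and 2 were above all RPM libraries, and RPR2 replicate 3 lay among them. Cd24a was 2.15-fold lower in RPM, with a log2 difference of -1.10 ± 0.266 (SE, n = 11 and 3; limma adjusted p = 0.00411), and 3.04-fold lower without RPR2 replicate 3 (-1.60, limma adjusted p = 2.4e-05).

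Cd47 separated the models without overlap. It ran from 14.4 FPKM (RPM replicate 6) through a median of 19.9 to 33.3 (RPM replicate 5) in RPM, and stood at 69.7, 62.0 and 78.1 FPKM in RPR2. All 3 RPR2 libraries, RPR2 replicate 3 included, were above all 11 RPM libraries. Cd47 was the 1 gene of the 8 without overlap when all libraries were used, beside 13.6% of all genes tested whose RPM libraries were all lower. It was 3.16-fold lower in RPM, with a log2 difference of -1.66 ± 0.220 (SE, n = 11 and 3; limma adjusted p = 3.8e-05), and 2.98-fold lower without RPR2 replicate 3 (limma adjusted p = 0.000255).

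Cd44 had the largest difference of the 8 on the log2(FPKM + 1) scale, although with a pseudocount of 0.01 that of Dll3 (3.23) exceeded that of Cd44 (-2.78). It ran from 1.74 FPKM (RPM replicate 2) through a median of 5.38 to 23.7 (RPM replicate 5) in RPM, and stood at 21.0, 26.6 and 75.3 FPKM in RPR2. RPM replicate 5 lay above RPR2 replicate 1, and the other 10 RPM libraries, the next of which was RPM replicate 1 at 10.98 FPKM, lay below all RPR2 libraries. Cd44 was 5.73-fold lower in RPM, with a log2 difference of -2.52 ± 0.554 (SE, n = 11 and 3; limma adjusted p = 0.00221). The difference was -1.98 without RPR2 replicate 3 (limma adjusted p = 0.0178) and -2.72 without RPM replicate 5 (0.000314).

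Some markers of other cells were lower in RPM beside Cd24a, Cd47 and Cd44, while 3 of 5 smooth muscle and 3 of 6 fibroblast markers were higher, as given above. All 8 alveolar type 2 markers were lower in RPM (limma, median log2 difference -4.91), beside 22.8% of all genes. Without RPR2 replicate 3, 4 of 8 were lower (median -3.50), beside 28.5%. The summed level of 6 club and ciliated cell markers was 16.5 to 1593 FPKM in RPM tumours against 3515, 25590 and 3102 in RPR2. Of these 6, 3 were called lower and 0 higher, and Scgb1a1 alone was at 23990 FPKM in RPR2 replicate 2. The sum of 8 macrophage markers was 229 to 750 in RPM and 829, 629 and 1716 in RPR2. Only Lyz2 of these 8 was called lower (295 FPKM on average in RPM, against 688, 541 and 1469) and 0 were higher. Without RPR2 replicate 3, 0 were called either way (median log2 difference 0.21). The summed level of 6 endothelial markers was 24.7 to 75.9 FPKM in RPM and 28.9 to 70.9 in RPR2. The RPM library with the highest Cd44 and Cd47, RPM replicate 5, had the highest club and ciliated sum and the highest endothelial sum of its model. It also had the lowest neuroendocrine sum. Its alveolar type 2 and macrophage sums were 682 and 550 FPKM, below those of RPM replicate 11 (892 and 750 FPKM). Within RPR2 the alveolar type 2 and macrophage sums were highest in RPR2 replicate 3, where Cd44 and Cd47 were highest and Cd24a lowest. The club and ciliated sum (3102 FPKM) and the endothelial sum (28.9 FPKM) were instead the lowest of RPR2 in that library. The part of these cells in the differences was not tested.

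**Figure D3:**
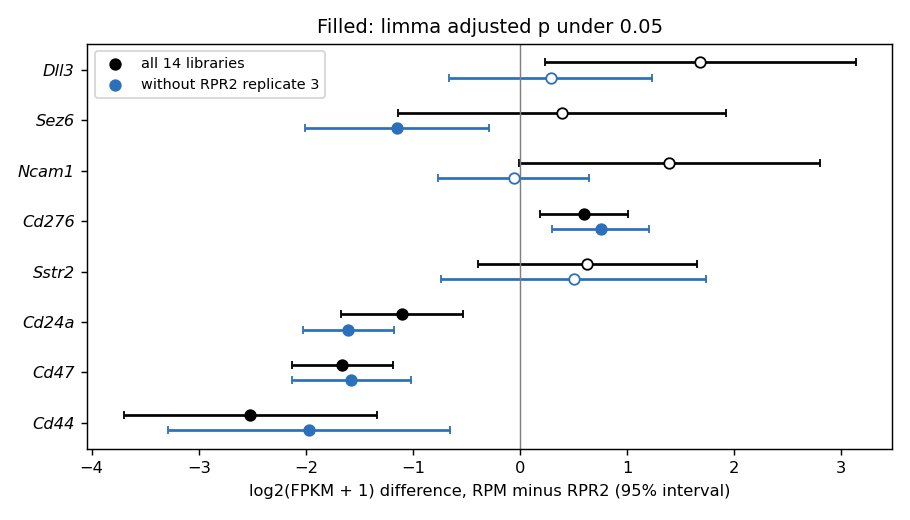
Log2(FPKM + 1) difference, RPM minus RPR2, for each gene with its 95% interval, with all 14 libraries (black) and without RPR2 replicate 3 (blue), filled where the limma adjusted p is under 0.05. Sez6 turns from 0.39 to -1.15 when that library is left out, while Cd47 stays near -1.6.

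The relatives of the members were read from lists set by name, with earlier results of these data known. Their counts stand beside 18.4% of all genes called higher and 22.8% lower with all libraries, 16.2% and 28.5% without RPR2 replicate 3, and medians of all genes of -0.06 and -0.22. Of 11 Notch ligands and receptors, Dlk2 was higher in RPM and Notch1 lower (limma, median log2 difference -0.38). Without RPR2 replicate 3, 1 was higher (Dlk2) and 2 were lower (Jag2 and the receptor gene Notch4), with a median of -0.61. The log2 difference of Notch4 was then -0.88 (limma adjusted p = 0.0179, and 0.113 with all libraries). Dlk2, a ligand-like protein without the domain that activates Notch, was at 4.69 ± 1.73 FPKM (SD, n = 11) among RPM tumours, against 1.07, 0.33 and 0.12 in RPR2 (limma adjusted p = 0.000177). The receptor gene Notch1 was at 1.85 ± 1.11 FPKM in RPM tumours, against 3.44, 3.93 and 7.90 in RPR2 (limma adjusted p = 0.0124, and 0.0769 without RPR2 replicate 3). The activating ligands Dll1, Dll4, Jag1 and Jag2 were not called with all libraries. Jag2 was at 17.9 ± 4.52 FPKM in RPM tumours, against 40.9, 37.6 and 4.90 in RPR2, and was called lower in RPM without RPR2 replicate 3 (-1.13, limma adjusted p = 0.00305). Dlk1, another ligand-like protein and a marker of fetal endocrine tissue, was at 0.60 to 24.2 FPKM in RPM and at 4.96, 0.19 and 2227 FPKM in RPR2, so that RPR2 replicate 3 alone stood far above all other libraries (limma adjusted p = 0.223).

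Sez6l2, a brain protein of the Sez6 family, was at 25.2 ± 9.74 FPKM (SD, n = 11) among RPM tumours, against 86.0, 94.9 and 1.83 in RPR2, and was called lower in RPM without RPR2 replicate 3 (-1.92, limma adjusted p = 0.00285) but not with it (-0.25, 0.823). Sez6l reached at most 0.55 FPKM in RPM and stood at 2.18, 0.12 and 0.01 in RPR2, too low to be tested.

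Of 8 genes of the neural adhesion list, 0 were higher in RPM and 2 lower (limma, median log2 difference -0.26), beside 22.8% lower over all genes, and 4 were lower without RPR2 replicate 3, beside 28.5%. Chl1, an adhesion molecule close to L1, was at 0.30 ± 0.292 FPKM (SD, n = 11) among RPM tumours, against 25.4, 31.2 and 1.91 in RPR2 (limma adjusted p = 9.0e-05). Ncam2, the paralog of Ncam1, was at 0.619 ± 0.491 FPKM in RPM tumours, against 9.77, 7.71 and 0.04 in RPR2 (limma adjusted p = 0.0242). Ncam1 itself had like levels in RPM and in RPR2 replicates 1 and 2, as given above. The polysialyltransferase genes St8sia2 and St8sia4, whose enzymes add polysialic acid to Ncam1, were at 1.77 ± 2.19 and 3.28 ± 2.16 FPKM in RPM and were not called.

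Sstr2 had the highest RPM mean of the 5 somatostatin receptor genes. Sstr5 was at 0 to 2.34 FPKM in RPM tumours, against 4.26, 2 and 0 in RPR2 (limma adjusted p = 0.0603, and 0.00235 without RPR2 replicate 3, lower in RPM). Sstr1 reached 0.61 FPKM in RPM and stood at 7.65, 2.19 and 0 in RPR2, and Sstr3 reached 0.26 in RPM and stood at 0.51, 5.01 and 0.23. Neither passed the filter, and Sstr4 stayed at or below 0.41 in all libraries. The ligand gene Sst was at most 0.18 FPKM, and its relative Cort was at 2.14 ± 1.24 FPKM in RPM tumours, against 2.51, 2.60 and 0.84 in RPR2 (limma adjusted p = 0.939).

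**Figure D4:**
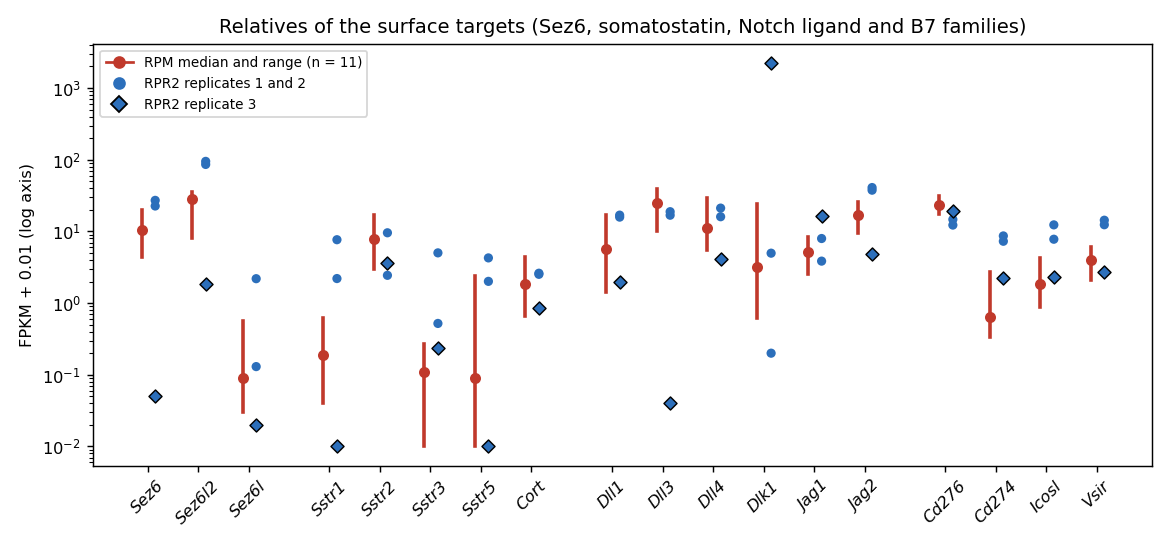
Levels of the relatives of 4 members, as FPKM + 0.01 on a log axis: RPM median and range over 11 libraries (red), RPR2 replicates 1 and 2 (circles) and RPR2 replicate 3 (diamonds). Dlk1 stands at 2227 FPKM in RPR2 replicate 3, and Sez6l2 at 86.0 and 94.9 FPKM in the other RPR2 libraries.

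In the B7 family, 5 of 8 genes were tested, with Cd276 higher in RPM and Cd274 and Icosl lower (limma). Cd274, which encodes the checkpoint ligand PD-L1, was at 0.998 ± 0.734 FPKM (SD, n = 11) among RPM tumours, against 8.64, 7.28 and 2.23 in RPR2 (limma adjusted p = 0.00100). Icosl, the ligand of the costimulatory receptor ICOS, was at 1.95 ± 0.928 FPKM in RPM tumours, against 7.77, 12.3 and 2.30 in RPR2 (limma adjusted p = 0.00690). Within this family Cd276 was thus the gene with the opposite direction to Cd274, and at 23.7 FPKM in RPM the highest of the 8.

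Of 9 tested genes of the anti-phagocytic list, 4 were lower in RPM and 0 higher (limma, median log2 difference -0.84), namely Cd24a, Cd47, Thbs1 and B2m. Without RPR2 replicate 3 the count was again 4 and 0, but the median was -0.20, near the -0.22 of all genes. B2m, the light chain of class I antigen-presenting molecules and itself a signal read by macrophages, was at 162 ± 73.5 FPKM (SD, n = 11) among RPM tumours, against 1193, 987 and 1312 in RPR2 (limma adjusted p = 3.0e-05). Thbs1, a secreted ligand of Cd47, was at 18.1 ± 15.9 FPKM in RPM tumours, against 240, 136 and 21.8 in RPR2 (limma adjusted p = 0.00833). Sirpa, the receptor of Cd47, was at 16.8 ± 4.30 FPKM in RPM tumours, against 17.3, 14.8 and 26.2 in RPR2 (limma adjusted p = 0.539), and Siglecg, the receptor of Cd24a, reached at most 0.75 FPKM and was not tested. Pilra, an inhibitory receptor of myeloid cells, was at 1.86 ± 0.491 FPKM in RPM tumours, against 2.66, 1.32 and 14.1 in RPR2 (limma adjusted p = 0.0960), and Lrp1, which takes up Calr-bearing cells, at 15.4 ± 5.35 against 11.2, 13.2 and 39.5 (0.531). The engulfment signal Calr was at 327 ± 64.7 FPKM in RPM tumours, against 324, 313 and 563 in RPR2 (limma adjusted p = 0.349).

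Of 11 tested genes of the Cd44 list, 5 were lower in RPM and 1 higher (limma, median log2 difference -1.57, beside -0.06 over all genes, of which 22.8% were lower and 18.4% higher). The lower ones were Cd44, the invariant chain and Cd44 partner Cd74, the membrane linker Ezr, and Esrp1 and Esrp2, which direct the epithelial splicing of Cd44. Esrp1 was at 0.962 ± 1.28 FPKM (SD, n = 11) among RPM tumours, against 74.5, 71.7 and 27.7 in RPR2 (limma adjusted p = 1.6e-06). Gene-level values do not tell the isoforms of Cd44 apart. The gene called higher was Hmmr, a hyaluronan receptor that is also a mitotic spindle protein, at 27.1 ± 6.48 FPKM in RPM tumours, against 25.4, 19.0 and 4.42 in RPR2. Its call was lost without RPR2 replicate 3 (limma adjusted p = 0.0457 with it and 0.441 without).

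Of 23 tested genes of other surface proteins for which therapies exist or are in trial, 4 were higher in RPM and 11 lower (limma, median log2 difference -0.87), and 2 and 11 without RPR2 replicate 3. Over all genes 18.4% were higher and 22.8% lower, so the count of higher genes is near the background. Epcam, an epithelial adhesion molecule, was at 6.69 FPKM in RPM on average and at 355, 428 and 214 in RPR2 (limma adjusted p = 1.1e-05). Nectin2, an adhesion molecule and immune ligand, was at 9.94 FPKM in RPM tumours, against 42.6, 47.9 and 93.4 in RPR2 (limma adjusted p = 1.4e-06). The receptor tyrosine kinase gene Met was at 2.69 FPKM in RPM tumours, against 15.9, 14.5 and 27.5 in RPR2 (limma adjusted p = 0.000198). Ceacam1 was also lower in RPM (2.09 FPKM, against 6.15, 14.4 and 44.0, limma adjusted p = 0.00200). The genes called higher were Tfrc, the transferrin receptor, at 154 FPKM in RPM tumours, against 33.6, 30.3 and 46.5 in RPR2 (limma adjusted p = 0.00229), and Cxcr4, Mcam and Cdh6. These last 3 were named because the count is small, and none was called without RPR2 replicate 3 (limma adjusted p = 0.0925, 0.0961 and 0.0635). Of 6 enzymes that make the gangliosides GD2 and fucosyl-GM1, both of them SCLC antigens, 4 were lower in RPM and 0 higher (limma). Without RPR2 replicate 3, 3 were lower, and B4galnt1 lost its call (limma adjusted p = 0.0248 with it and 0.178 without). The counts pool the enzymes of both gangliosides. St8sia1 and St3gal5 were not called with all libraries (limma adjusted p = 0.3185 and 0.3175) or without RPR2 replicate 3 (0.802 and 0.811). The fucosyltransferase gene Fut2 was at 0.125 FPKM in RPM tumours, against 5.23, 7.85 and 4.90 in RPR2 (limma adjusted p = 2.5e-08), and Fut1 at 0.521 and at 8.63, 10.2 and 1.18 (0.000542).

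The number of Myc alleles made no difference that passed the test for any of the 8 genes. Among RPM tumours 0 of the 8 were called between 9 LSL/LSL and 2 LSL/+ libraries, and over all 14862 genes tested limma called 0% higher and 0.00673% (1 gene) lower. The unadjusted p was under 0.05 for 2569 of those genes, and the exact Wilcoxon test called 0, which says little, since the smallest two-sided p that 9 against 2 libraries allow is 0.0364 before adjustment. Dll3 was at 39.7 and 10.2 FPKM in the LSL/+ libraries, the highest and the lowest value of the model, against 23.9 ± 9.02 in LSL/LSL (SD, n = 9). The log2 difference of Dll3, LSL/LSL minus LSL/+, was 0.13 with an interval of -0.92 to 1.18. Sez6 was at 6.92 and 7.93 FPKM in LSL/+ and at 12.4 ± 5.07 in LSL/LSL, a log2 difference of 0.57 with an interval of -0.31 to 1.45 (limma adjusted p = 0.441). For Cd24a the difference was -0.04 (-0.47 to 0.39) and for Cd47 it was 0.01 (-0.61 to 0.63). Cd44 had the largest difference, 0.66, with an interval of -0.75 to 2.06 (limma adjusted p = 0.578). With 2 LSL/+ libraries these intervals are wide.

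Within RPM the members varied unequally. The coefficient of variation of the FPKM was 17.4% for Cd24a, 20.03% for Cd276, 26.8% for Cd47, 38.6% for Ncam1, 43.2% for Sez6, 43.3% for Dll3, 57.5% for Sstr2 and 92.5% for Cd44. The highest library was 1.79 times the lowest for Cd24a, 3.90 times for Dll3 and 13.6 times for Cd44. Set beside the 15719 tested genes, the SD of Cd44 on the log2 scale stood at percentile 93.3, that of Sstr2 at 89.9, that of Dll3 at 84.3 and that of Cd24a at 17.2.

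Of the 28 pairs of members, 2 varied together over the 11 RPM libraries past the threshold (permutation test with 100000 permutations, Benjamini-Hochberg over 28 pairs), and 5 had an unadjusted permutation p under 0.05. Dll3 and Sstr2 gave Pearson's r = 0.87 (two-sided permutation p = 0.00129, adjusted p = 0.0204) and Spearman's rho = 0.83 (permutation p = 0.00286, adjusted p = 0.0400), and r = 0.79 without the 2 libraries farthest from the median of Dll3. RPM replicates 2, 6, 9 and 10 were high for both genes and RPM replicates 1, 4, 5 and 8 low for both. These 4 low libraries lay at 10.2 to 13.97 FPKM of Dll3, apart from the other 7 at 22.3 to 39.7 FPKM. Of those 7, RPM replicate 7 was at 22.3 FPKM of Dll3 but at only 3.82 FPKM of Sstr2. RPM replicate 11 was at 24.9 FPKM of Dll3 and 11.8 FPKM of Sstr2. Among those 7 alone r was 0.69 (exact permutation p = 0.0941) and rho 0.57 (exact permutation p = 0.20), so the relation did not pass within them. Sez6 and Ncam1 gave r = 0.83 (permutation p = 0.00146, adjusted p = 0.0204), rho = 0.83 (permutation p = 0.00257, adjusted p = 0.0400) and r = 0.81 without the 2 libraries farthest from the median of Sez6. RPM replicates 6, 9 and 10 were the 3 highest for both, and RPM replicate 5 the lowest. Cd47 and Cd44 gave r = 0.68 (permutation p = 0.0209, adjusted p = 0.195), with RPM replicate 5 the highest for both, and r = 0.46 without the 2 libraries farthest from the median of Cd47. The pair passed without RPM replicate 2 (r = 0.79, permutation adjusted p = 0.0468) and gave r = 0.48 without RPM replicate 5 (0.536). In libraries averaged by title number 1 pair passed, Dll3 and Sstr2. Neither that pair nor Sez6 and Ncam1 passed over the 9 LSL/LSL tumours alone or without RPM replicate 4, 6, 9 or 10, where r stayed between 0.83 and 0.87 for Dll3 and Sstr2 and between 0.80 and 0.85 for Sez6 and Ncam1.

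**Figure D5:**
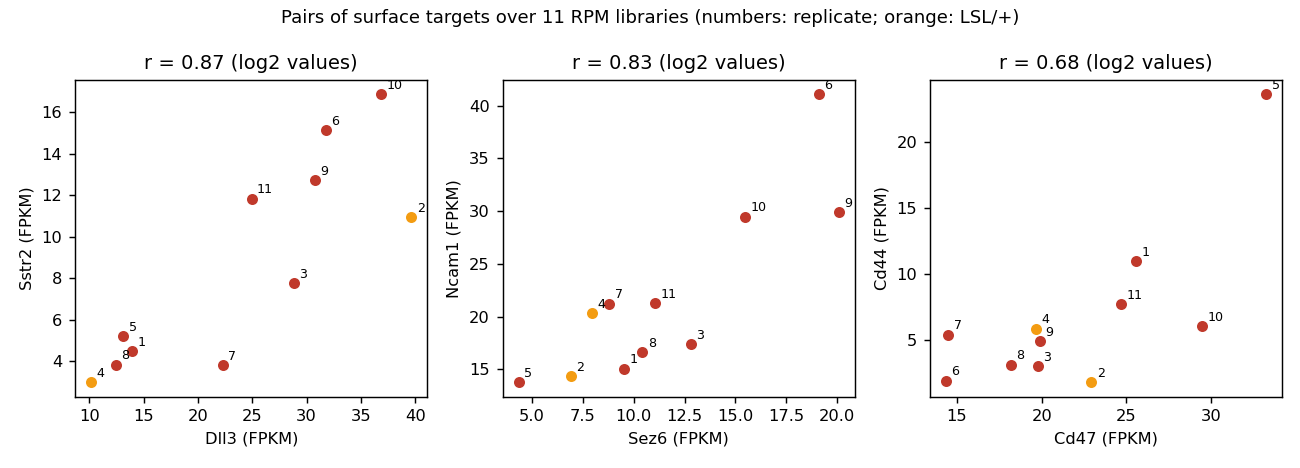
FPKM of 3 pairs of genes over the 11 RPM libraries, numbered by replicate, with LSL/+ tumours in orange and r of the log2 values above each panel. RPM replicates 6, 9 and 10 lie at the upper right for Sez6 and Ncam1, and RPM replicate 5 alone lies at the top for Cd47 and Cd44.

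The genes most like each member over the 11 RPM libraries were taken by Pearson's r of log2(FPKM + 1) among 13715 genes, as a description with no test. They share the libraries and their depth. Each is among the highest values of a search over all these genes with only 11 libraries. Such a search can give a high r by itself, and how high was not tested. The nearest to Dll3 were Wrap73 (r = 0.88) and Shd (r = 0.88), and Shd was also among the nearest to Sstr2 (r = 0.94), after As3mt (r = 0.95). Ncam1 had the closest neighbours of all, Tnik (r = 0.99) and Lrrc8d (r = 0.98), followed by Sez6 with Tunar (r = 0.98) and Cep70 (r = 0.96). For Cd44 they were Laptm4b and Tmem63a (r = 0.95 for both), for Cd276 Atp6v0a1 (r = 0.90) and Hcn3 (r = 0.89), and for Cd47 Cldn5 (r = 0.89), the endothelial tight junction gene, and Hist1h1c (r = 0.89). Cd24a had the weakest, Ess2 (r = 0.83) and Alg9 (r = 0.82).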

How the data were processed

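RNA of 14 tumours was sequenced from single ends of stranded, poly(A)-selected libraries, per the labels' protocols. The authors deposited 1 table of FPKM values for 46517 Ensembl genes, in which a further reporter row was not used. RSEM 1.2.12, Bowtie 1.0.1 and mm10 are named without roles, per the submitters' processing notes. No label gives the annotation release, the strand setting or any scaling between libraries, and genes with near-identical copies depend on how shared reads were divided. Groups came from the genotype labels and source names. The table gives no counts, and depths were estimated from the steps of low FPKM values in genes with 1 annotated transcript, so reads per gene are approximate and cover counting error only. Replicate numbers are in accession order and pair no samples.

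Values were tested as log2(FPKM + 1) with limma 3.58.1 in R 4.3.3 (empirical Bayes with a trend, Benjamini-Hochberg over all genes tested, threshold 0.05) on genes that reached 1 FPKM in 3 or more libraries. The filter was set on all libraries of a comparison and kept when a library was left out. The fit was tested on simulated data. Pairs were tested by 100000 permutations with scipy 1.17.1. Named genes are the 8 members, at most 4 of each family list by smallest p with all Sez6, somatostatin and Notch ligand genes, and Myc. The 2 nearest genes of each member and marker genes as levels are named too. Others are named where a count is small or outside that rule, among them Sirpa, Siglecg, Lrp1 and St8sia4. They were chosen after their values were seen. The members and lists were chosen with earlier results of these data known. A gene in the lists is not reported here but stays in the counts. Alternatives were pseudocounts of 0.1 and 0.01, other filters (none, or a mean FPKM of 5), TPM, median-of-ratios and quantile scaling, array weights, an exact Wilcoxon test, title number as a random effect, only LSL/LSL tumours and leaving out each library. Leaving out RPR2 replicate 3 with RPM replicate 5, the reapplied filter, the marker sum without Nkx2-1 and the 7 libraries high in Dll3 were added after seeing the data.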

Additional observations from a re-analysis of the deposited data

How the results depend on the processing

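Over 27 alternatives for RPM against RPR2, Cd47 and Cd44 kept their direction and their call in all 27, with log2 differences of -1.87 to -1.57 and -2.87 to -1.98. Cd24a kept its direction, from -1.86 to -0.72, and lost its call by the exact Wilcoxon test (-1.10, adjusted p = 0.0616). Cd276 lost its call after TPM scaling (0.42) and by the exact Wilcoxon test (0.60, adjusted p = 0.0963). Dll3 was called after median-of-ratios scaling (1.86, limma adjusted p = 0.0359) and quantile normalization (1.90, 0.0258), and Ncam1 after quantile normalization (1.59, 0.0472). With array weights Sez6 reversed to -0.93 (limma adjusted p = 0.00609) and Sstr2 was called (1.06, 0.0211). Without both RPR2 replicate 3 and RPM replicate 5 Sez6 was at -1.04 and Ncam1 at -0.0037, and Cd276 at 0.79. With the filter reapplied without RPR2 replicate 3 they were at -1.15 and -0.059, and 2529 genes were called higher and 4227 lower. The counts moved to 2171 lower with a mean FPKM of at least 5, 6577 lower with array weights and 1878 higher with TPM scaling. The median of all genes moved to -0.23 with TPM scaling and 0.12 with quantile normalization. Leaving out 1 library at a time gave 2306 to 3029 genes higher and 2633 to 4483 lower. For the members it gave 0.29 to 2.42 for Dll3, -1.15 to 1.23 for Sez6, -0.059 to 2.17 for Ncam1, 0.46 to 0.75 for Cd276, 0.28 to 1.10 for Sstr2, -1.60 to -0.72 for Cd24a, -1.74 to -1.58 for Cd47 and -2.87 to -1.98 for Cd44.

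For LSL/LSL against LSL/+, genes higher numbered 4 and 9 with pseudocounts of 0.1 and 0.01 and 0 to 6 without 1 library. Genes lower numbered 30 with no filter, 0 with TPM scaling, quantile normalization, array weights or the exact Wilcoxon test, and 0 to 2 without 1 library. No member was called. Signs of differences near 0 turned for Cd24a (0.22 with TPM, 0.15 with quantile normalization), Dll3 (-0.060 with median-of-ratios), Cd276 (-0.17 with median-of-ratios, -0.11 with quantile normalization, -0.0070 with the random effect) and Cd47 (-0.18 and -0.077 likewise, and -0.030 with array weights). Without 1 library the ranges were -0.80 to 1.06 for Dll3, -0.31 to 0.34 for Cd276, -0.42 to 1.16 for Sstr2, -0.11 to 0.029 for Cd24a and -0.10 to 0.12 for Cd47.

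Pairs past the threshold numbered 1 by title number, 0 in LSL/LSL alone and 0 to 3 without 1 library. The causes of these changes were not tested. Adding processed copies to the members was not run, as no row used here is named as a copy of a member. No paired analysis was possible because replicate numbers were given in accession order and pair no samples. Depth limits Dll3 and Sez6 in RPR2 replicate 3, at about 1.70 and 3.96 reads.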
